A study of Mus musculus with 24 samples.

Results

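The 10 genes described here encode parts of the lens capsule: the laminin chain genes Lama1, Lama3, Lama4, Lama5, Lamb1, Lamb2 and Lamc1, the heparan sulfate proteoglycan genes Hspg2 (perlecan) and Agrn (agrin), and the nidogen gene Nid1. They were chosen by symbol, all 10 are among the 12611 genes of the count table, and all 10 were among the 12427 genes tested after removal of rows with few counts. RNA was measured by stranded, ribosome-depleted total RNA sequencing of CD1 mouse lenses that had been dissected into epithelium and fiber. The 8 groups are the epithelium and the fiber, each taken at 3 embryonic stages, E14.5, E16.5 and E18.5 (days of gestation), and once after birth, P0.5, with 3 libraries a group and 24 in all. The labels give no treatment, no mutation and no sex, and they do not say how many animals a library holds or whether animals were pooled. The p-values below therefore measure the spread between libraries, which may be technical.

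The lens is wrapped in a thick basement membrane, the capsule, which the lens cells themselves secrete. Laminins are its cross-shaped trimers of 1 alpha, 1 beta and 1 gamma chain, and they polymerize into a sheet that cells hold through integrins and dystroglycan. Nidogen binds the gamma 1 chain and the collagen IV network, and perlecan and agrin are large proteins that carry heparan sulfate chains and tie laminin to receptors. The anterior epithelium divides and lies directly under the capsule, while fiber cells elongate, fill the lens with crystallins and later lose their nuclei.

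Levels are counts scaled to a library of 1e6 (CPM, counts per 1e6) of library sizes scaled by the trimmed mean of M-values (TMM). Libraries held 7658794 to 11819117 counts in epithelium and 13010174 to 21617737 in fiber. Crystallin genes took 1.66% to 4.28% of the counts in epithelium and 23.3% to 43.9% in fiber, and Rn45s, the ribosomal RNA precursor, took 3.98% to 28.9% over all libraries. All 6 epithelial marker genes (Foxe3, Cdh1, Pdgfra, Gja1, Pax6, Aqp1) were called lower in fiber and all 6 fiber markers (Crygd, Mip, Bfsp1, Bfsp2, Lim2, Dnase2b) higher, so the tissue labels fit their markers. Markers of other cells were mostly in the epithelial libraries: the summed level of 12 endothelial genes was 278 to 551 CPM in epithelium and 11.9 to 39.8 CPM in fiber, and 12 retina and ciliary margin genes summed to 26.0 to 85.2 CPM in E14.5 and E16.5 epithelium and to 315 to 517 CPM in E18.5 and P0.5 epithelium. In bulk tissue, fewer cells of a type and less RNA per cell cannot be told apart.

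Of the 10 genes, 6 were lower in fiber than in epithelium (Lama4, Agrn, Lamc1, Lamb2, Lamb1 and Lama5), 1 was higher (Lama3), and Hspg2, Lama1 and Nid1 stayed within 2-fold. A call is an adjusted p under 0.05 over all genes tested, by edgeR's quasi-likelihood test with Benjamini-Hochberg adjustment, and at least a 2-fold difference. In this comparison, averaged over the 4 stages, 15.7% of all genes tested were called higher in fiber and 22.2% lower. The median log2 difference of the 10 genes was -1.21, against -0.03 for all genes. The 10 genes ranged from Lama4 at -5.67 to Lama3 at 1.38. TMM sets the middle of all genes near 0. With library size alone the median of all genes moved to -1.23, and with crystallins and Rn45s left out as well it was -0.63, so the direction of a difference is relative to that middle. Of all calls 41.4% were higher in fiber with TMM, 7.33% with library size alone and 17.4% with crystallins and Rn45s left out as well. All 6 lower genes kept their call under each of these scalings.

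**Figure D1:**
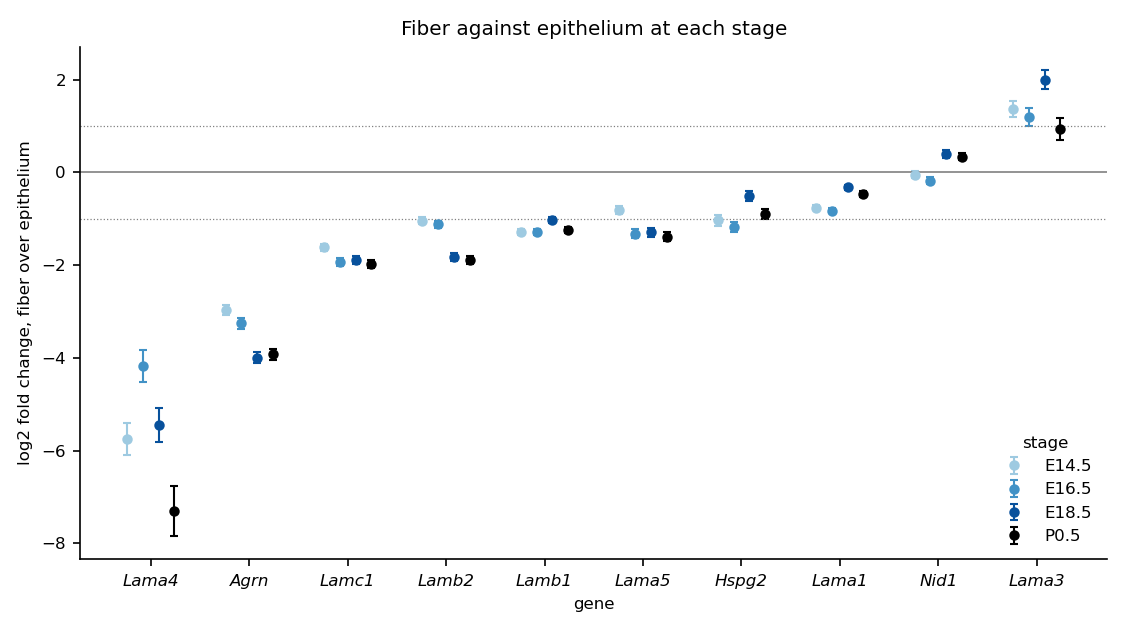
log2 fold change of each gene, fiber over epithelium, at the 4 stages (points, shaded by stage), with its standard error (bars). Dotted lines mark a 2-fold difference. Lama4 and Agrn lie lowest at every stage, Lama3 is the one gene above 0 at every stage, and Nid1 crosses 0 between E16.5 and E18.5.

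At the single stages the calls were nearly the same in number. At E14.5, 1 gene was higher and 6 were lower, against 14.0% and 19.4% of all genes. The E16.5 libraries gave 1 higher and 7 lower, against 14.6% and 20.4%. Those of E18.5 gave 1 and 6, against 17.4% and 24.2%. At P0.5, 0 of the 10 were higher and 6 were lower by edgeR and by DESeq2, against 17.5% and 24.5%, and all 10 had an unadjusted p under 0.05. Lama4, Agrn, Lamc1, Lamb1 and Lamb2 were lower at all 4 stages. Hspg2 was called at E14.5 and E16.5, Lama5 from E16.5 on, and Lama3 was called higher up to E18.5. The calls near 2-fold turned on single libraries: without E14.5 epithelium replicate 3 the E14.5 differences of Lamb2 (-0.96) and Hspg2 (-0.97) were under 2-fold, without E14.5 fiber replicate 1 or 3 that of Hspg2 was (-0.98 and -0.99), and without E18.5 epithelium replicate 2 the E18.5 difference of Lamb1 was (-0.98). Without P0.5 fiber replicate 2 the P0.5 difference of Lama3 was 1.04 (adjusted p = 0.00116 by edgeR), so that 1 gene would be called higher at that stage too.

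Of the 4 alpha chain genes among the 10, Lama1 had the highest level per kilobase in both tissues. It encodes the alpha 1 chain of laminin-111, the typical early embryonic laminin. The 3 epithelial libraries had 465, 477 and 500 CPM at E14.5, 539, 519 and 494 CPM at E16.5, 422, 405 and 346 CPM at E18.5, and 393, 393 and 418 CPM at P0.5. In fiber the values were 275, 295 and 282 CPM at E14.5, 289, 293 and 292 CPM at E16.5, 317, 299 and 322 CPM at E18.5, and 289, 289 and 295 CPM at P0.5. Every epithelial library was above every fiber library, and the epithelial values were lower at the 2 later stages than at the 2 earlier ones. The averaged difference was -0.59 (SE 0.03, adjusted p = 1.78e-15), a level 1.51-fold lower in fiber, and it passed 2-fold with library size alone (-1.80), also with crystallins and Rn45s left out (-1.20). In fiber the P0.5 level differed from that at E14.5 by 0.04 (SE 0.06).

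Lama5 encodes the alpha 5 chain of laminin-511, the usual chain of mature epithelial basement membranes. Epithelial libraries had 157, 189 and 188 CPM at E14.5, 253, 248 and 268 CPM at E16.5, 358, 352 and 295 CPM at E18.5, and 355, 346 and 356 CPM at P0.5. The first 3 stages did not overlap in epithelium, and E18.5 and P0.5 did. From E14.5 to P0.5 the epithelial difference was 0.98 (SE 0.09, adjusted p = 4.15e-09), a 1.98-fold higher level that falls just short of a call and passed it without E14.5 epithelium replicate 2 (1.03) or 3 (1.03). Fiber libraries had 97.0, 110 and 97.9 CPM at E14.5, 108, 97.7 and 102 CPM at E16.5, 147, 125 and 137 CPM at E18.5, and 135, 115 and 156 CPM at P0.5. The fiber course was 0.41 (SE 0.10, adjusted p = 8.73e-04), and it was -0.14 with library size alone.

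Because Lama1 and Lama5 were counted in the same libraries, the ratio of the pair does not depend on the scaling. In epithelium the Lama5 to Lama1 count ratio was 0.370 ± 0.030 (SD, n = 3) at E14.5, 0.497 ± 0.040 and 0.857 ± 0.011 at the next 2 stages, and 0.879 ± 0.026 after birth. In fiber it was 0.358 ± 0.014, 0.352 ± 0.021, 0.435 ± 0.024 and 0.464 ± 0.064 at the same stages. The ratio was therefore alike in the tissues at E14.5, where the libraries overlapped, and higher in all 3 epithelial libraries than in the fiber ones at each later stage. Over the stages the log2 ratio was lower in fiber by -0.61, with p = 7.5e-05 and an adjusted p of 9e-05 in an exact two-sided permutation of the tissue labels within stages. This and 5 other ratios were chosen after the values had been seen. The adjustment covers these 6 and does not correct for that choice, which holds for each ratio tested below.

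**Figure D2:**
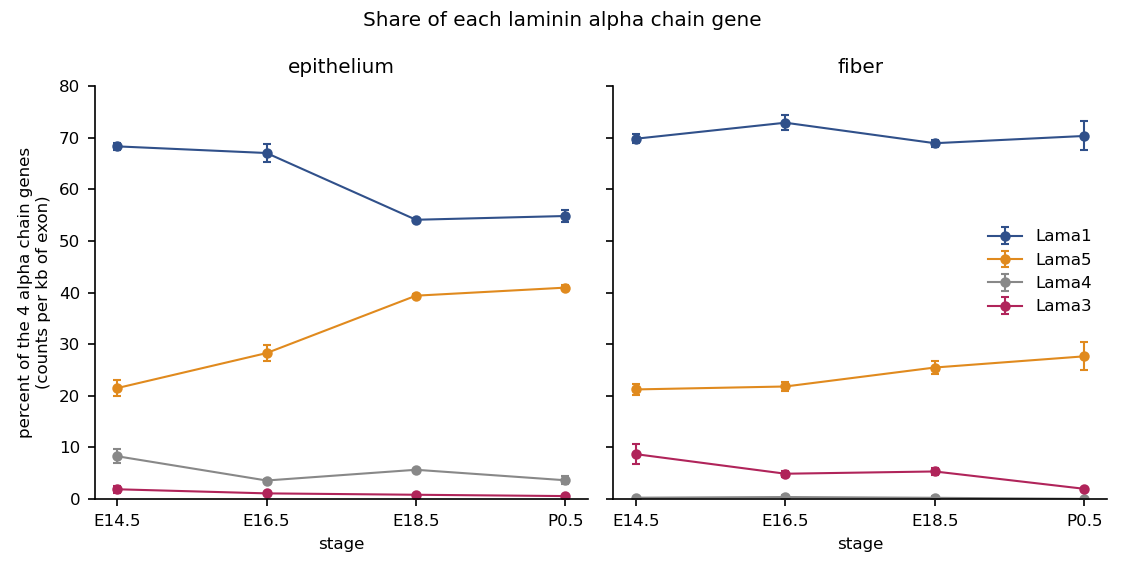
Percent of the summed counts per kilobase of exon of Lama1, Lama3, Lama4 and Lama5 that each gene took (y axis), by stage (x axis), in epithelium (left) and fiber (right). Points are means of 3 libraries and bars are SD. Lama1 holds 54.1% to 68.3% in epithelium and 68.9% to 72.9% in fiber, and the epithelial share of Lama5 goes from 21.5% to 41.0%.

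Per kilobase of exon, Lama1 made up 68.3% ± 0.74 (SD, n = 3) of these 4 alpha chain genes in E14.5 epithelium and 54.8% ± 1.1 at P0.5, while Lama5 went from 21.5% ± 1.6 to 41.0% ± 0.42. In fiber Lama1 was 69.8% ± 0.92 at E14.5 and 70.3% ± 2.8 at P0.5. Lama5 was 21.2% ± 1.0 and 27.6% ± 2.7 of the fiber sum. The shares take the union of annotated exons as the length of each gene. The length of Lama4 is 12068 bases by that union and 6046 in its longest transcript, and with the latter Lama4 would take 15.1% in place of 8.30% of the 4 genes in E14.5 epithelium and Lama1 63.4%. The order of Lama1 and Lama5 was the same with both lengths.

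Lama3 encodes the alpha 3 chain of laminin-332, the laminin of hemidesmosomes in stratified epithelia, and it is the 1 gene of the 10 called higher in fiber. Fiber libraries had 46.0, 30.7 and 40.7 CPM at E14.5, 23.4, 23.5 and 18.49 CPM at E16.5, 25.3, 29.5 and 25.7 CPM at E18.5, and 9.88, 7.98 and 9.66 CPM at P0.5. Epithelial libraries had 9.18, 15.3 and 20.5 CPM at E14.5, 9.61, 10.01 and 8.77 CPM at E16.5, 6.85, 6.03 and 7.06 CPM at E18.5, and 4.57, 4.55 and 5.08 CPM at P0.5. At each stage the 3 fiber libraries were above the 3 epithelial ones, and both tissues had their lowest values at P0.5. The tissue difference was 1.37 (SE 0.17, adjusted p = 1.41e-07) at E14.5, then 1.20 (SE 0.19) and 2.001 (SE 0.20) at the next 2 stages, and 0.93 (SE 0.23, adjusted p = 8.14e-04) after birth. With library size alone the averaged difference of Lama3 was 0.17 and the P0.5 difference reversed to -0.51, and with crystallins and Rn45s left out as well the averaged one was 0.78. Against Lama1, a ratio that no scaling touches, Lama3 counts were 3.97-fold higher in fiber (log2 ratio 1.99, exact two-sided permutation p = 1.25e-05, adjusted 1.88e-05, the smallest p these permutations can give). Lama1 itself was at -0.59 averaged with TMM, so this ratio does not give the direction of Lama3 alone.

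Lama3 fell over the course in both tissues. The log2 change from E14.5 to P0.5 was -1.68 (SE 0.21, adjusted p = 3.48e-07) in epithelium and -2.11 (SE 0.19, adjusted p = 4.23e-09) in fiber. In fiber the step from E18.5 to P0.5 was called (-1.56, SE 0.20, adjusted p = 5.71e-05), where 0.539% of all genes were called in either direction. Its share of the alpha chain genes per kilobase in fiber was 8.70% ± 1.9 at E14.5 and 1.99% ± 0.17 at P0.5.

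Lama4 encodes the alpha 4 chain of laminin-411, a chain typical of the walls of blood vessels. Epithelial libraries had 81.8, 62.5 and 73.3 CPM at E14.5, 34.7, 31.0 and 38.1 CPM at E16.5, 54.8, 55.7 and 43.2 CPM at E18.5, and 41.7, 29.9 and 28.1 CPM at P0.5. Fiber libraries had 0.994, 2.15 and 1.01 CPM at E14.5, 4.46, 0.998 and 0.467 CPM at E16.5, 0.432, 2.93 and 0.768 CPM at E18.5, and 0.253, 0.239 and 0.105 CPM at P0.5. All fiber values were far under all epithelial ones, and single fiber libraries at E16.5 (replicate 1) and E18.5 (replicate 2) stood above their group. The 3 P0.5 fiber libraries held 6 Lama4 counts together against 1623 in epithelium, a CPM ratio of 165 with a 95% interval of 75.4 to 449 from counting error alone. Before birth the ratio was 54.4 (41.1 to 73.4), 18.1 (14.1 to 23.8) and 44.6 (32.2 to 63.5) from the first to the last stage.

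All 12 endothelial markers were, like Lama4, called lower in fiber, with none at 0 in any group. They summed to 432 to 501 CPM in E14.5, 278 to 344 in E16.5, 398 to 551 in E18.5 and 322 to 399 in P0.5 epithelium. In epithelium 0 of the 12 were called from E14.5 to P0.5 (median -0.42). From E14.5 to E16.5, 1 was called lower and 0 higher (median -0.76). All 8 mural cell markers in the table were also lower in fiber. Over the epithelial course, however, 2 of these 8 were called higher and 0 lower. Their sum was 263 to 295 CPM in E14.5 and 449 to 487 CPM in P0.5 epithelium. The genes whose log2 CPM followed that of Lama4 most closely over the 24 libraries, among 8575 genes with a mean of at least 10 CPM, were Itga4 (Pearson r = 0.98; 0.87 within epithelium and 0.83 within fiber), Tie1 (0.98; 0.86 and 0.82) and Notch4 (0.98; 0.80 and 0.87). Tie1 is a receptor of endothelial cells and Notch4 a Notch receptor known from them. In epithelium Lama4 fell from E14.5 to P0.5 by 1.13 on the log2 scale (SE 0.21, adjusted p = 9.45e-05) and from E14.5 to E16.5 by 1.07 (SE 0.21, adjusted p = 8.41e-04). DESeq2 called neither, and the second call was lost without E14.5 epithelium replicate 1 (-0.98) or E16.5 epithelium replicate 2 (-0.99). The mesenchyme markers fell in the same libraries: of 8 tested, 6 were called lower and 1 higher from E14.5 to P0.5 (median -2.01), and 4 lower and 0 higher from E14.5 to E16.5 (median -1.15). None of the 8 was at 0 in epithelium, and they summed to 109 to 167 CPM at E14.5, 41.4 to 73.4 at E16.5, 35.1 to 42.9 at E18.5 and 31.7 to 41.0 at P0.5. The part of vessel and mesenchymal cells in the Lama4 level was not tested. The called fall in fiber (-2.68, SE 1.05, adjusted p = 0.0341) rests on 50 against 6 counts and was lost without E14.5 fiber replicate 2 or any 1 of the P0.5 fiber libraries.

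Lamb1, the beta 1 chain gene shared by laminin-111, laminin-411 and laminin-511, had the smallest differences from E14.5 to P0.5 of the 10 in both tissues. Its epithelial libraries lay between 500 and 646 CPM and its fiber libraries between 231 and 288 CPM. Those differences were -0.01 (SE 0.06) in epithelium and 0.03 (SE 0.07) in fiber, and the tissue difference was -1.28 (SE 0.07) at E14.5 and -1.24 (SE 0.07) at P0.5. Averaged, Lamb1 was 2.31-fold lower in fiber (-1.21, SE 0.03, adjusted p = 8.88e-21). No change over time was called for it, and the libraries of all 4 stages overlapped with their neighbours in epithelium.

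Lamb2 encodes the beta 2 chain, a chain of synaptic and kidney basement membranes that takes the place of beta 1. Epithelial libraries had 48.4, 42.2 and 53.1 CPM at E14.5, 45.5, 43.1 and 42.7 CPM at E16.5, 65.3, 65.3 and 71.9 CPM at E18.5, and 67.5, 69.6 and 68.2 CPM at P0.5. Fiber libraries had 22.3, 24.1 and 23.7 CPM at E14.5, 20.4, 21.0 and 18.9 CPM at E16.5, 20.4, 17.2 and 19.0 CPM at E18.5, and 17.2, 20.3 and 17.6 CPM at P0.5. The epithelial libraries of the 2 later stages were all above those of the 2 earlier ones, while in fiber every library after E14.5 was below the 3 at E14.5. From E14.5 to P0.5 the difference was 0.51 (SE 0.07, adjusted p = 2.59e-06) in epithelium and -0.33 (SE 0.09, adjusted p = 0.00319) in fiber, both under 2-fold. The tissue difference was -1.04 (SE 0.08) at E14.5 and -1.88 (SE 0.08) at P0.5. Per kilobase, Lamb2 was 11.6% ± 1.1 of the 2 beta chain genes in E14.5 epithelium, 15.9% ± 0.68 at P0.5, and 13.5% ± 0.34 and 10.8% ± 0.98 in fiber at these stages. These shares depend on the length taken: with the longest transcripts they were 7.66%, 10.7%, 8.96% and 7.06%. The Lamb2 to Lamb1 count ratio, which uses no length, was higher in fiber at E14.5 and E16.5 and higher in epithelium at E18.5 and P0.5, and over the stages it differed by -0.26 (exact two-sided permutation p = 0.0391, the largest of the 6 ratios).

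Lamc1 encodes the gamma 1 chain, the common gamma chain of most laminins and the one nidogen binds. Epithelial libraries had 420, 423 and 428 CPM at E14.5, 478, 455 and 478 CPM at E16.5, 543, 523 and 440 CPM at E18.5, and 483, 440 and 485 CPM at P0.5. Fiber libraries had 140, 142 and 132 CPM at E14.5, 135, 113 and 123 CPM at E16.5, 136, 126 and 142 CPM at E18.5, and 130, 125 and 104 CPM at P0.5. The tissues were far apart at every stage, and E14.5 epithelium lay below the libraries of the other epithelial stages, which overlapped. Averaged, Lamc1 was 3.62-fold lower in fiber (-1.85, SE 0.04, adjusted p = 1.68e-22), the lowest value among the laminin genes other than Lama4.

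The trimer needs 1 chain of each class, and the 3 classes stood in different ratios in the 2 tissues. Summed per kilobase of exon, the 4 alpha chain genes had 72.7 ± 3.3 CPM per kilobase (SD, n = 3) in E14.5 epithelium and 42.0 ± 1.0 in fiber, the beta chain genes 67.6 ± 1.5 and 28.4 ± 1.4, and Lamc1 51.2 ± 0.47 and 16.7 ± 0.68. The alpha sum was 1.42 ± 0.052 times Lamc1 in E14.5 epithelium and 2.52 ± 0.091 times in fiber, and at P0.5 it was 1.33 ± 0.048 and 3.003 ± 0.51 times. For the beta sum the values were 1.32 ± 0.022 and 1.71 ± 0.14 at E14.5 and 1.25 ± 0.062 and 1.96 ± 0.12 at P0.5. The order of the alpha and beta sums turned with the length scale. Lamb1 has 9917 bases by the exon union and 5784 in its longest transcript, and with the longest transcripts the beta sum was 111 ± 2.1 CPM per kilobase in E14.5 epithelium and 46.3 ± 2.3 in fiber, against alpha sums of 79.5 ± 3.2 and 42.7 ± 1.1. The mean alpha sum was above the beta sum in 8 of 8 groups by the exon union and in 0 of 8 by the longest transcripts. The beta sum was then 1.996 ± 0.025 and 2.56 ± 0.22 times Lamc1 at E14.5, so on both scales the ratio to Lamc1 was higher in fiber at that stage.

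Nid1 encodes nidogen 1, also called entactin, and it had the highest level per kilobase of the 10 in all 8 groups. It stood at 296 ± 23 CPM per kilobase in E14.5 epithelium and 286 ± 19 in fiber, and at 331 ± 26 and 419 ± 18 at P0.5. Epithelial libraries had 1889, 2208 and 2074 CPM at E14.5, 2478, 2409 and 2488 CPM at E16.5, 2244, 2277 and 1917 CPM at E18.5, and 2183, 2205 and 2503 CPM at P0.5. Fiber libraries had 1919, 2140 and 1899 CPM at E14.5, 2147, 2233 and 2136 CPM at E16.5, 2918, 2683 and 2857 CPM at E18.5, and 2907, 2786 and 3035 CPM at P0.5. The tissues overlapped at E14.5, the epithelium was above the fiber at E16.5, and all fiber libraries were above all epithelial ones at E18.5 and P0.5. The tissue difference was -0.05 (SE 0.08) and -0.18 (SE 0.08) at the 2 earlier stages, then 0.39 (SE 0.08, adjusted p = 6.62e-05) at E18.5 and 0.34 (SE 0.08, adjusted p = 3.27e-04) at P0.5. These positive values reversed to -1.09 and -1.11 with library size alone, and to -0.28 and -0.32 with crystallins and Rn45s left out as well, so the direction of Nid1 at the late stages depends on the scaling.

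The ratio of Nid1 to Lamc1 does not depend on the scaling, and it does not give the direction of Nid1 alone. It was 4.86 ± 0.36 (SD, n = 3) in E14.5 and 4.90 ± 0.34 in P0.5 epithelium, and 14.4 ± 0.69 in E14.5 and 24.6 ± 3.9 in P0.5 fiber. The ratio was 3.95-fold higher in fiber over the 4 stages (exact two-sided permutation p = 1.25e-05, adjusted 1.88e-05, the smallest these permutations can give). This pair too was chosen after the values had been seen. With TMM the averaged tissue difference was -1.85 for Lamc1 and 0.13 for Nid1, so on that scale most of the ratio was the lower Lamc1 in fiber. With library size alone Nid1 was lower in fiber too, so this split depends on the scaling. In the Nid1 to Lamc1 ratio every fiber library was above every epithelial one, and the mean ratio in fiber was higher at each stage than at the one before.

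**Figure D3:**
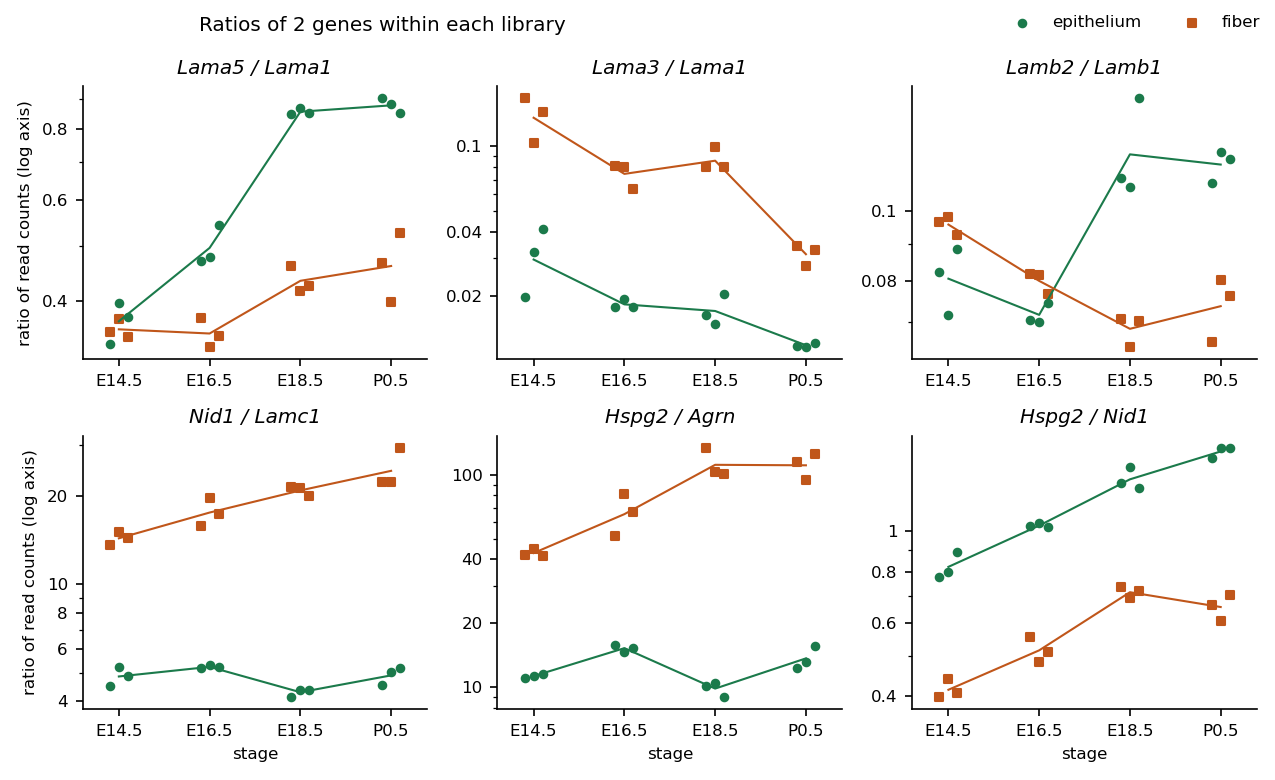
Ratio of the read counts of 2 genes in the same library (y axis, logarithmic), by stage (x axis), in epithelium (circles) and fiber (squares), with lines through the geometric means of 3 libraries. Nid1 to Lamc1 and Hspg2 to Agrn are higher in every fiber library, Hspg2 to Nid1 is higher in the epithelial libraries at each stage, and Lama5 to Lama1 separates the tissues after E14.5.

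Hspg2 encodes perlecan, a large multi-domain proteoglycan of nearly all basement membranes that binds growth factors through its heparan sulfate. Epithelial libraries had 1470, 1764 and 1848 CPM at E14.5, 2548, 2521 and 2548 CPM at E16.5, 2942, 3259 and 2435 CPM at E18.5, and 3285, 3499 and 3972 CPM at P0.5. Fiber libraries had 766, 941 and 772 CPM at E14.5, 1193, 1081 and 1094 CPM at E16.5, 2142, 1851 and 2049 CPM at E18.5, and 1934, 1691 and 2131 CPM at P0.5. In both tissues the P0.5 libraries were all above the E14.5 ones, and the P0.5 fiber libraries overlapped those of E14.5 epithelium. Hspg2 rose in both tissues, by 1.08 (SE 0.11, adjusted p = 2.03e-08) in epithelium and by 1.22 (SE 0.11, adjusted p = 4.49e-09) in fiber. The epithelial value was 0.99, under 2-fold, without E14.5 epithelium replicate 1, and the fiber value was 0.66 with library size alone. It was the 1 gene of the 10 called higher over the course in either tissue, where 10.1% of all genes were called higher in epithelium and 6.69% in fiber.

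The tissue difference of Hspg2 was -1.04 (SE 0.11) and -1.18 (SE 0.11) at the 2 earlier stages, and -0.52 (SE 0.11) and -0.90 (SE 0.11) at the later ones. Averaged it was -0.91 (SE 0.06, adjusted p = 1.16e-13), 1.88-fold lower in fiber, and it passed 2-fold with library size alone (-2.11), also with crystallins and Rn45s left out (-1.51), and over E14.5 and E16.5 only (-1.11). Against Nid1, Hspg2 counts went from 0.823 ± 0.060 (SD, n = 3) at E14.5 to 1.56 ± 0.047 at P0.5 in epithelium and from 0.415 ± 0.021 to 0.658 ± 0.048 in fiber. The genes whose levels followed those of Hspg2 most closely were Lhfpl2 (r = 0.98), App, the amyloid precursor protein gene (0.98), and P3h4 (0.97), with r of 0.95 to 0.97 within each tissue over 12 libraries. These correlations share libraries, tissue and stage and are given as a description.

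Agrn encodes agrin, the heparan sulfate proteoglycan known from the neuromuscular junction, where it acts through Lrp4 and MuSK, and from its binding of laminin and dystroglycan. Epithelial libraries had 133, 157 and 161 CPM at E14.5, 162, 172 and 166 CPM at E16.5, 291, 312 and 270 CPM at E18.5, and 268, 265 and 253 CPM at P0.5. Fiber libraries had 18.3, 20.9 and 18.55 CPM at E14.5, 23.2, 13.4 and 16.3 CPM at E16.5, 16.1, 18.0 and 20.4 CPM at E18.5, and 16.8, 17.9 and 17.0 CPM at P0.5. The epithelium went to a higher level between E16.5 and E18.5, and the fiber libraries of all neighbouring stages overlapped. Agrn was 11.6-fold lower in fiber over the stages (-3.54, SE 0.06, adjusted p = 1.07e-24), from -2.97 (SE 0.12) at E14.5 to -3.92 (SE 0.12) at P0.5. In epithelium it differed by 0.80 (SE 0.10, adjusted p = 3.31e-07) between E14.5 and P0.5, a 1.74-fold higher level, and in fiber by -0.15 (SE 0.14, adjusted p = 0.361).

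Both proteoglycans carry heparan sulfate, yet their ratio was far apart in the tissues. In epithelium Hspg2 had 11.3 ± 0.23 (SD, n = 3) times the counts of Agrn at E14.5 and 13.7 ± 1.8 times at P0.5. In fiber the ratio was 42.8 ± 1.8, 66.4 ± 15, 112 ± 18 and 112 ± 16 from the first stage to the last. It was 6.21-fold higher in fiber over the stages (exact two-sided permutation p = 1.25e-05, adjusted 1.88e-05). Like the other ratios, this pair was chosen after the values had been seen. The genes most like Agrn were Twsg1, Ptprk and Ext2 (each r = 0.99 over 24 libraries), and within fiber alone their r was 0.32, 0.48 and 0.67. Ext2 encodes a polymerase that builds the heparan sulfate chain.

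The upstream sequences of Agrn, Hspg2 and Nid1 are shown because these 3 genes differed in their course with TMM. Agrn was lower in fiber at every stage, Hspg2 was higher at P0.5 than at E14.5 in both tissues, and Nid1 stayed within 2-fold between tissues and stages. With library size alone Nid1 passed 2-fold between the tissues. The sequences are the stretches before the first annotated exon (GRCm38, RefSeq promoter windows), 5′ to 3′ on the strand of the gene, and capitals mark every match to the motifs searched.
Agrn, chr4:156197489-156197738, minus strand: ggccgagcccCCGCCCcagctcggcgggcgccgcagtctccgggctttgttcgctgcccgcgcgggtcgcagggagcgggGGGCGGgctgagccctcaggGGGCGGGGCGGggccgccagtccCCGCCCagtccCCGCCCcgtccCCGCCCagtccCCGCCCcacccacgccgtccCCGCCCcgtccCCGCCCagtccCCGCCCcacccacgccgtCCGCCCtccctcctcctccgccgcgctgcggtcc
Hspg2, chr4:137468553-137468768, plus strand: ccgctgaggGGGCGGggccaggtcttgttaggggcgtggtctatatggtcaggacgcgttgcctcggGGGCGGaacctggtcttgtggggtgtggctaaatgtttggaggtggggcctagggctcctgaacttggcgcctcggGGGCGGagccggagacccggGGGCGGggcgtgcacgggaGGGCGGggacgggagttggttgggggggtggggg
Nid1, chr13:13437352-13437550, plus strand: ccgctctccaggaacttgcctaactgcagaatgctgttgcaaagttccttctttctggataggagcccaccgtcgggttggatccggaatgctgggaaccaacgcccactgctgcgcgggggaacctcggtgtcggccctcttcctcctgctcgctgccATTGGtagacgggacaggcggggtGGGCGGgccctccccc
The motifs were the GC box (GGGCGG), the TATA box (TATAAA), the CCAAT box (CCAAT), the E box (CACGTG), a Maf half-site (TGCTGA), an AP-1 site (TGANTCA) and a heat shock element (GAANNTTC), each on both strands. In the 300-base window around its start, 250 bases before and 50 after, Agrn had 12 GC box matches, 2 of which share 1 base. Of all 32851 windows, 0.0213% had as many. A second Agrn window in RefSeq, chr4:156186210-156186509, had 2 matches, which 19.5% of windows reach. The bases checked after the start in that window were not found in a GENCODE transcript of Agrn. Hspg2 had 5 (2.71% of windows had as many) and Nid1 had 1 (35.7%), and the Nid1 stretch also holds a CCAAT match, which 37.4% of all windows do. Agrn has GC-rich sequence here, 83.3% G and C against a median of 52.7% over all windows, and a GC box is more often met by letters alone in such sequence.

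Windows of 6 of the 10 genes were read (Agrn with 2, Hspg2, Lama5, Lamb1, Lamb2 and Nid1). Chromosome 18, which holds Lama3, was left out of this search. Of these 7 windows, 6 had a GC box, 2 a CCAAT box, 1 a Maf half-site (in 19.5% of all windows), and 0 a TATA box (13.6%), an E box (7.15%), an AP-1 site (7.81%) or a heat shock element (7.86%). The window without any match is that of Lamb2, a 44.0% G and C stretch. A match is a run of letters and not a bound site.

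On GRCm38 with GENCODE M21, all 10 genes are protein-coding. Lama1 lies at chr17:67697259-67822647 (plus strand, 63 exons in its longest transcript), Lama4 at chr10:38965515-39110188 (plus, 38 exons) and Lama5 at chr2:180176373-180225859 (minus, 79 exons). Lamb1 is at chr12:31265234-31329644 (plus, 33 exons), Lamb2 at chr9:108479736-108490530 (plus, 33 exons) and Lamc1 at chr1:153218922-153332786 (minus, 28 exons). Hspg2 is at chr4:137468769-137570630 (plus, 97 exons), Agrn at chr4:156165290-156197488 (minus, 36 exons) and Nid1 at chr13:13437551-13512269 (plus, 20 exons). Lama3 is on chromosome 18 (plus, 75 exons). None of the 10 overlaps another gene of the count table except Hspg2, which holds the microRNA gene Mir7018 on its own strand.

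Over the course from E14.5 to P0.5, 1 of the 10 genes rose in epithelium (Hspg2) and 2 fell (Lama3 and Lama4), against 10.1% and 3.21% of all genes. In fiber the same 3 genes were called in the same directions, against 6.69% and 5.24% of all genes. Between neighbouring stages, the epithelium had 1 call at E14.5 to E16.5 (Lama4, 2.53% of all genes called in either direction), 0 at E16.5 to E18.5 (7.30%) and 0 at E18.5 to P0.5 (1.01%). The largest step under 2-fold in epithelium was that of Agrn from E16.5 to E18.5, 0.80 (SE 0.10, adjusted p = 8.69e-07). In fiber there were 0 calls at E14.5 to E16.5 (3.07%), 0 at E16.5 to E18.5 (2.63%) and 1, Lama3, at E18.5 to P0.5. The largest fiber steps under 2-fold were those of Lama3 from E14.5 to E16.5, -0.85 (SE 0.17, adjusted p = 0.00112), and of Hspg2 from E16.5 to E18.5, 0.84 (SE 0.11, adjusted p = 6.59e-06). With adjusted p alone, without the fold, epithelium had 5, 4 and 0 of the 10 genes under 0.05 at the 3 steps, and fiber 2, 3 and 1, and with the unadjusted p 5, 7 and 3 in epithelium and 3, 3 and 4 in fiber. DESeq2 made 0 calls at the 4 steps where edgeR made 0.

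**Figure D4:**
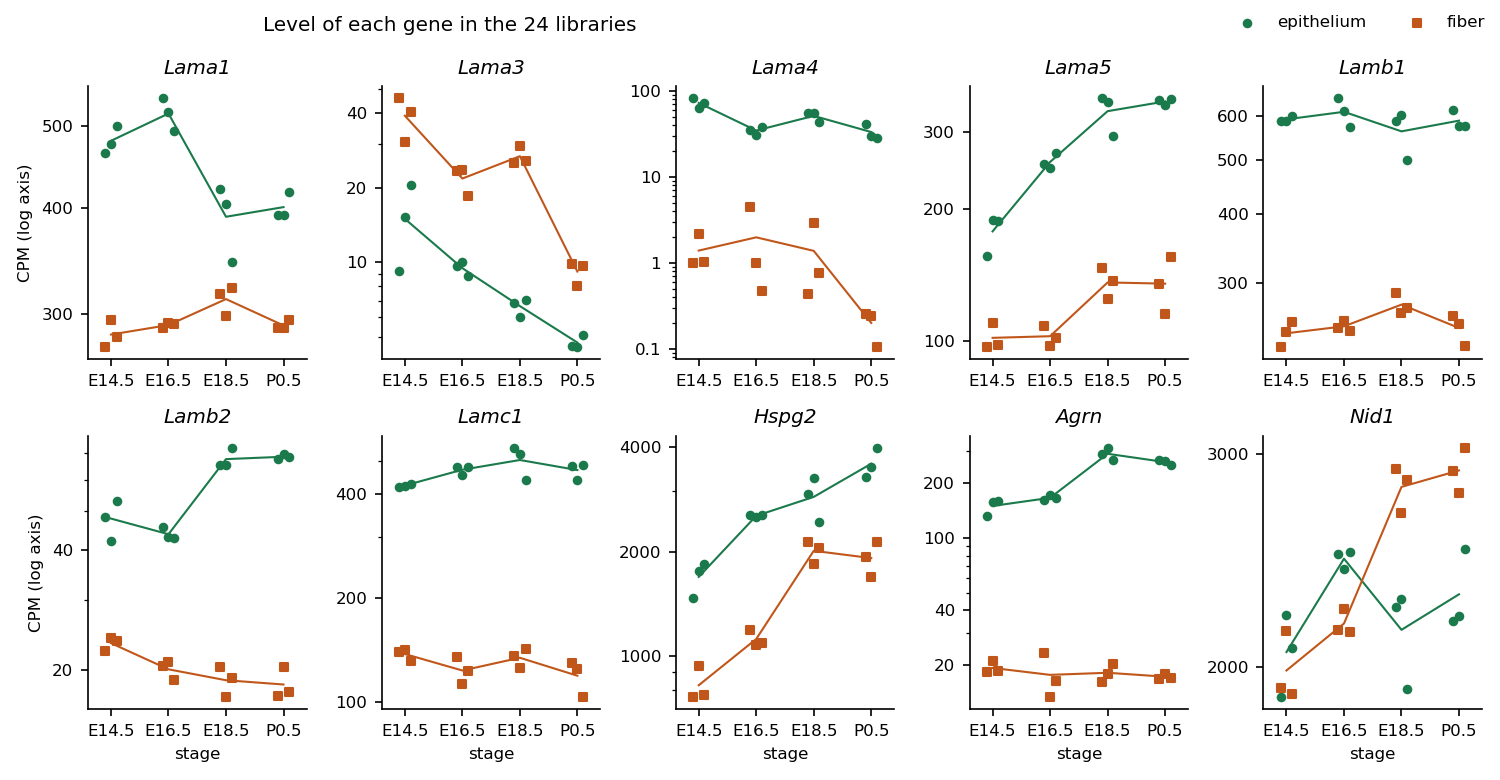
CPM of each gene in each library (points, logarithmic axis, a separate range per panel) by stage, in epithelium (circles) and fiber (squares), with lines through the means of 3 libraries. From E14.5 to P0.5, though not at every step, the lines of Hspg2 go up in both tissues and those of Lama3 go down in both. Those of Agrn and Lamb2 end higher than they start in epithelium and not in fiber.

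The change of the tissue difference between E14.5 and P0.5 was tested as an interaction. By edgeR 0 of the 10 were called at 2-fold, where 11.7% of all genes were, and DESeq2 also called 0. Without the fold, 6 had an adjusted p under 0.05, and the same number an unadjusted one: Agrn at -0.95, Lamb2 at -0.84, Lama5 at -0.57, Lamc1 at -0.36, Nid1 at 0.39 and Lama1 at 0.30. A negative value means that the fiber moved down against the epithelium. Over the same stages the 12 retina and ciliary margin markers and the 6 pigment cell markers rose in epithelium in 10 and 5 cases. The pigment markers summed to 33.2 to 40.7 CPM in the earlier and 106 to 209 CPM in the later epithelial libraries. Of 8 mural cell markers 2 were called higher, and their sum was 263 to 295 CPM in E14.5 and 449 to 487 CPM in P0.5 epithelium. Of all genes 10.1% were called higher over the epithelial course. The part of these cells in the later epithelial levels of Agrn, Lamb2 and Lama5 was not tested. Averaged over E14.5 and E16.5 alone, a choice made after seeing the data, Nid1 was at -0.11 and the directions of the other 9 genes were as over 4 stages. That average holds no library of the later stages, so it does not bear on the later changes.

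The other genes of the capsule and its receptors were read from 6 lists. Of 14 tested genes around the laminin network, 2 were higher in fiber and 9 lower, with a median of -2.89 against -0.03 for all genes. Higher were Ntn1 (3.08), the guidance protein netrin 1, and Smoc1 (1.86), and the lowest were Smoc2 (-5.25) and Tinagl1 (-4.67). Of 13 tested genes for collagen IV, XV and XVIII and their crosslinking, 0 were higher and 6 lower, with Col15a1 (-5.21), Loxl2 (-4.68) and Loxl3 (-4.15) lowest. Loxl2 and Loxl3 encode lysyl oxidase-like enzymes that crosslink collagen. The background is the 15.7% and 22.2% given above.

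**Figure D5:**
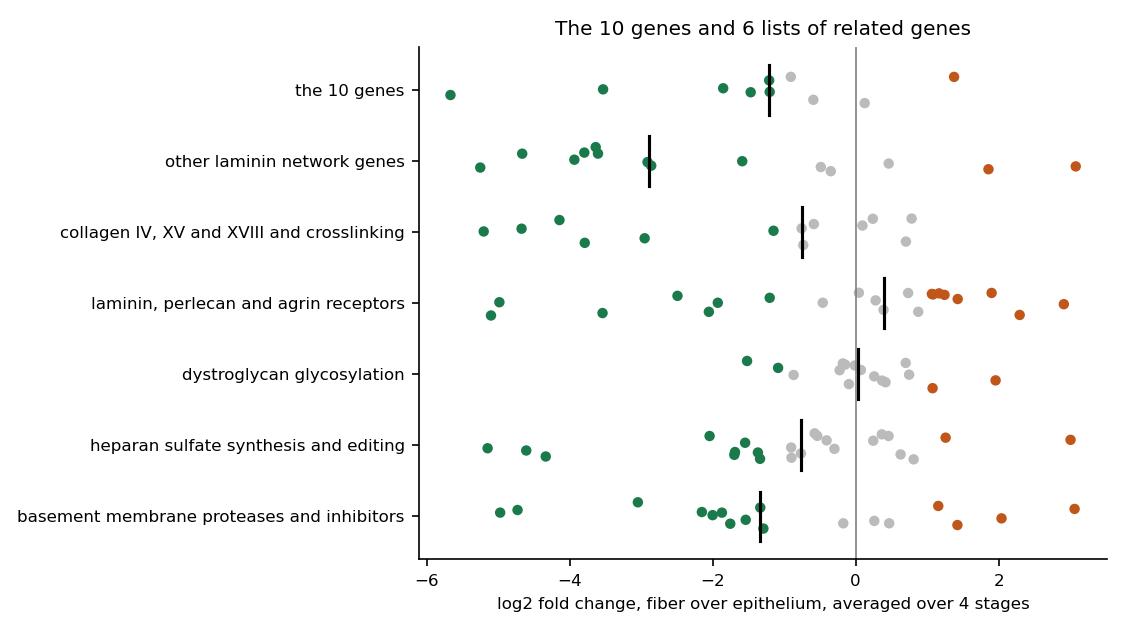
log2 fold change of fiber over epithelium, averaged over 4 stages (x axis), for the 10 genes and for each tested gene of 6 lists (rows). Green points were called lower in fiber, orange ones higher and grey ones not, and black bars are medians. The laminin network list has the lowest median, -2.89, and the receptor list the highest, 0.39.

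The receptor list was divided: of 21 tested genes 8 were higher in fiber and 7 lower, with a median of 0.39. Higher were Itga2 (2.91), a collagen and laminin receptor subunit, and Sntb1 (1.90), which encodes a syntrophin, a partner of dystrophin. Lower were Itga3 (-5.10), which encodes a receptor subunit for laminin-332 and laminin-511, Itga1 (-4.99), and Lrp4 (-3.54), the agrin receptor, with a difference like that of Agrn itself. Itga3 was also among the 3 genes most like Lamc1 over the 24 libraries (r = 0.99; 0.83 within epithelium and 0.63 within fiber). Of 16 genes that glycosylate dystroglycan, the step that lets it bind laminin and agrin, 2 were higher, Pomgnt2 (1.08) among them, and 2 lower, B3galnt2 (-1.09) among them.

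Of 23 genes that build or edit heparan sulfate, 2 were higher in fiber (Hs3st1 at 3.01 and Extl2 at 1.26) and 9 lower, with the sulfatase gene Sulf1 (-5.15), the sulfotransferase gene Hs6st2 (-4.61) and Papss2 (-4.34), which makes the sulfate donor, lowest. Of 17 proteases and inhibitors of the basement membrane, 4 were higher and 10 lower. Timp3 (3.06), an inhibitor bound to the matrix, Adam10 (2.04) and Adamts17 (1.42) had the largest positive values. Mmp2 (-4.98) and Mmp14 (-4.73), the protease that activates it, and Adamtsl4 (-3.05) had the largest negative ones. With library size alone the higher and lower counts were 1 and 11 for the laminin network, 0 and 10 for the collagens, 2 and 9 for receptors, 0 and 9 for dystroglycan glycosylation, 1 and 16 for heparan sulfate, and 1 and 11 for proteases, and Pomgnt2 reversed to -0.13. Under that scaling 4.72% of all genes were called higher and 59.7% lower.

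Like genes were found for the other members too, by Pearson r of log2 CPM over the 24 libraries. For Lama3 they were Idh1 (0.96), Whrn (0.95) and Nfe2l2 (0.94), with r of 0.87 to 0.96 within each tissue. For Lama5 they were Lama2 (0.98), another laminin alpha chain gene, Spock2 (0.98) and Sema3f (0.98). For Lama1 they were Cgnl1 (0.97), Igf2r (0.96) and Parm1 (0.96), for Lamb1 Tenm3, Mfhas1 and Lifr (each 0.99), and for Lamb2 Iqgap2, Fbn1, the fibrillin 1 gene, and Ptk7 (each 0.99). Nid1 had the weakest likenesses, with Sema5a (0.90), Cryab (0.89), an alpha crystallin gene, and Six3os1 (0.88). Within single tissues the likeness was uneven: for 16 of the 30 pairs (3 for each of the 10 genes) r was at least 0.75 in both tissues, while Tenm3 had r = 0.86 with Lamb1 in epithelium and 0.15 in fiber. The choice of genes depends on the measure. With Spearman's rank correlation 8 of the 30 were chosen again, and for Agrn, Lamb1 and Lamb2 0 of 3 were.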

How the data were processed

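Lens epithelium and fiber of CD1 mice were sequenced at 4 stages with 3 libraries a group. The deposited table holds raw read counts per gene symbol. Per the submitters' processing notes, Trim Galore 0.4.1, TopHat2 2.0.13, HTSeq 0.6.1, Cufflinks 2.2.1 and Cuffdiff were used with mm10. The sources used here do not say which strand was counted.

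Counts were fitted with edgeR 4.0.16 (R 4.3.3): 8 group means over 24 libraries, TMM, and genes kept by filterByExpr (minimum count 10, minimum total 15), which removed 184. Each contrast used glmQLFTest, with Benjamini-Hochberg adjustment over 12427 genes, and SE is the log2 change over the square root of F. The fit was also run on simulated counts in which a small part of the genes was changed. These had no crystallin difference between the tissues, so they do not test the scaling. No group held libraries alike within sampling noise. Exon lengths came from GENCODE M21, promoters from RefSeq (GRCm38.p6). Intervals cover counting error only. DESeq2 1.42.0, other scalings, filters and left-out libraries were alternatives.

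The genes and lists were chosen with earlier results of these data known. All 10 genes are named, with up to 3 genes per list and direction by size of change, and the 3 most alike per gene. A few list genes that this rule names are not reported here. Marker lists for macrophages (5 genes in the table, all lower in fiber), red cells (3 tested, all lower), mesenchyme (8 tested, 6 lower) and surface ectoderm (2 tested, 1 lower) were read too.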

Additional observations from a re-analysis of the deposited data

Results flagged for a closer look

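The difference between fiber and epithelium changed between E14.5 and P0.5 for 6 of the 10 genes by the test of that change itself (edgeR's quasi-likelihood test, Benjamini-Hochberg adjusted p under 0.05), in each case by less than 2-fold. For Agrn, the agrin gene, it moved by -0.95 on the log2 scale (SE 0.17, adjusted p = 8.68e-05). With TMM the epithelium differed by 0.80 (SE 0.10) and the fiber by -0.15 (SE 0.14) between these stages. With library size alone the median of all genes over the fiber course was -0.56, so such a split between the tissues depends on the scaling. Lamb2, the laminin beta 2 gene, moved by -0.84 (SE 0.12, adjusted p = 4.02e-06), with TMM levels higher in late epithelium and lower in late fiber. Lama5, the alpha 5 gene, moved by -0.57 (SE 0.13, adjusted p = 0.00122) and Lamc1, the gamma 1 gene, by -0.36 (SE 0.11, adjusted p = 0.0145). Nid1, the nidogen 1 gene, moved by 0.39 (SE 0.11, adjusted p = 0.00619) and Lama1, the alpha 1 gene, by 0.30 (SE 0.08, adjusted p = 0.00635). The last pair reversed with library size alone, as given under the processing. Summed markers of retina and ciliary margin, pigment cells and mural cells were higher in P0.5 than in E14.5 epithelium. Their part in these changes was not tested.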

How the results depend on the processing

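The 6 lower genes of the averaged comparison (Lama4, Agrn, Lamc1, Lamb2, Lamb1, Lama5) kept their direction and their call under every alternative run, and Lama3 lost its call with library size alone, with or without crystallins and Rn45s. Library size alone called 8010 genes in the averaged comparison (4703 with TMM), 7365 at E16.5, 9094 at E18.5, 8965 after birth, 2535 over the fiber course and 3398 in the change of the tissue difference, where 5 of the 10 genes were called, as was 1 in fiber from E14.5 to E16.5. It reversed Nid1 (-1.08 averaged, -1.09 at E18.5, -1.11 after birth, -0.24 in the change of the difference), Lama1 in that change (-0.35), Lama3 at P0.5 (-0.51), Lama5 over the fiber course (-0.14) and Pomgnt2 (-0.13). With crystallins and Rn45s left out as well, Nid1 was -0.48 averaged, -0.28 at E18.5 and -0.32 after birth, and 1 gene was called in the change of the difference. Over E14.5 and E16.5 only, an average chosen after seeing the data, Nid1 was -0.11. DESeq2 called 0 of the 10 in epithelium from E14.5 to E16.5 and 2 in fiber from E18.5 to P0.5, and a fit of the compared groups alone called 31 genes there (67 in the fit of all groups). Leaving out single libraries gave 0 to 1 genes in epithelium from E14.5 to E16.5 and 0 to 1 in the change of the difference (Agrn, -1.003, without E14.5 epithelium replicate 3). Of the 80 levels per kilobase, 41 moved by more than 1 SD with the longest transcript as length. The cause of these changes was not tested. Same-numbered libraries of the 2 tissues deviated together weakly at most (12 pairs, r from -0.07 to 0.22, 3 of them over 0.1). Of the 12 epithelial libraries, 6 were most like the fiber library of their own number, so a weak pairing stays possible. A fit with the replicate number as a block called 4705 genes and 7 of the 10. Depth limits Lama4 in fiber.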
